A study of Mus musculus with 19 samples.

Results

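The heat shock proteins and chaperones described here were 10 mouse genes chosen by symbol: Hspb1, Hspa1a, Hspa1b, Hspa8, Hspa5, Hsp90aa1, Hsp90ab1, Dnajb1, Hsph1 and Cryab. The deposited table holds 60567 entries, and the 10 genes were found on 9 of them, because Hspa1a and Hspa1b share a single entry. RNA sequencing was performed on 19 samples of brain cells from 9 month-old male C57bl6 mice, sorted by flow cytometry on green fluorescent protein (GFP). WT-GFP (n = 7) were GFP+ astrocytes of non-transgenic littermates that received an adeno-associated virus (AAV) for GFP. APP-GFP (n = 4) were GFP+ astrocytes of APP mice, a transgenic line with amyloid pathology whose transgenes include a mouse/human App chimera bearing the Swedish mutation, and which received the same virus. APP-SOCS3 (n = 5) were GFP+ astrocytes of APP mice given that virus together with an AAV for murine SOCS3, an inhibitor of the JAK2-STAT3 pathway. By the study's methods, the total viral titer was the same as with the GFP virus alone. GFP- cells (n = 3) were the unlabelled cells sorted from WT-GFP mice, a mixture that by the study's description also holds astrocytes the virus had not reached. All mice thus carried AAV-GFP, placed in hippocampal CA1, and both viruses used the gfaABC1D promoter, which is derived from GFAP and active in astrocytes. By the study's methods, both hippocampi of a mouse were sorted apart, so samples of a group may come from the same mouse. A figure legend of the study, however, gives 7, 4 and 5 as numbers of mice in the GFP+ groups, where its methods count samples. A GFP+ and a GFP- sample may come from the same tissue. The labels do not say which samples share a mouse, so p-values measure the spread between these samples, which may be technical. They would be too small where samples of a group share a mouse.

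Heat shock proteins are chaperones: they bind unfolded or partly folded proteins, keep them from aggregating and help them to fold. Small heat shock proteins such as HSPB1 and CRYAB hold unfolded proteins without using ATP, whereas the HSP70 and HSP90 families fold their clients in cycles of ATP hydrolysis. J-domain proteins deliver clients to HSP70, and HSP110 proteins exchange its nucleotide. Some members, such as Hspa8 and Hsp90ab1, are made constantly. Others, such as Hspa1a, Hspa1b, Hspb1 and Dnajb1, are induced within minutes of heat or other stress by heat shock factors, which bind inverted repeats of GAA in the promoter. HSPA5, also called BiP, works in the endoplasmic reticulum (ER) and is induced by the unfolded protein response. In the brain Cryab is known as a gene of astrocytes and oligodendrocytes.

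The table gives no sequence, and promoters from RefSeq (GRCm38.p6, 250 bases before to 50 after the start site) were available for 6 of the 10 genes. Hspb1, Hspa1a and Hspa5 are shown over the bases from 150 to 30 before the start site, 5′ to 3′. A heat shock element or the ER stress element was matched there. The stretch of Hspa1b has the same letters as that of Hspa1a, and that of Dnajb1, which held no match, is not shown. In Hspb1 and Hspa1a the capitals mark GAANNTTC, 2 adjoining units of a heat shock element, and in Hspa5 they mark the ER stress element, CCAAT and CCACG with 9 free bases between them.
Hspb1: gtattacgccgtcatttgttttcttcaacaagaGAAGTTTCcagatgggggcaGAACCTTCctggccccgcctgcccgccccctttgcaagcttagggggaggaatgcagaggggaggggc
Hspa1a: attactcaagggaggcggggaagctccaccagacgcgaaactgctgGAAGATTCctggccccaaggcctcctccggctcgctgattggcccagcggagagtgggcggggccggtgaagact
Hspa5: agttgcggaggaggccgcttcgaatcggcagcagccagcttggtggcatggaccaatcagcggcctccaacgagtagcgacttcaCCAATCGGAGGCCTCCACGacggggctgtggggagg
The stretches lie at chr5:135887769-135887889 (plus strand, Hspb1), chr17:34972186-34972306 (minus strand, Hspa1a) and chr2:34771940-34772060 (plus strand, Hspa5).

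GAANNTTC, which reads the same on both strands, was present in 7.86% of the 32851 RefSeq promoters of this length. It occurred at 2 places in Hspb1, starting 117 and 97 bases before the start site, and once in Hspa1a and Hspa1b, starting 104 bases before it. The Hspa1a and Hspa1b promoters were identical at 296 of 300 positions. The longer element with 3 units (TTC, GAA and TTC, each parted by NN, on either strand) was found in 0.603% of promoters and, among the members, in both Hsph1 promoters listed, where it lies 15 or 36 bases after the start site. The ER stress element, on either strand, was held by 0.119% of promoters and by Hspa5 alone among these 6 genes, from 65 to 47 bases before its start site, and it contains a CCAAT box. Neither form of the heat shock element was found in the Dnajb1 windows. The STAT element TTCNNNGAA, present in 8.298% of promoters, was found in none of those of the 6 genes. A match describes the letters in the window and is not evidence of binding, and the lack of a match is not evidence of its absence.

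The positions of the entries (mm10) lay on GENCODE M21 protein-coding genes. Hspb1 lies at chr5:135887919-135889563, Hspa8 at chr9:40800018-40805208, Hspa5 at chr2:34772090-34777547 and Hsp90aa1 at chr12:110690605-110696397. Hsp90ab1 lies at chr17:45567775-45573272, Dnajb1 at chr8:83608175-83612657, Hsph1 at chr5:149614287-149636315 and Cryab at chr9:50751325-50756636. The entry for Hspa1a and Hspa1b, chr17:34956429-34972340, spans both genes. Near-identical copies limit what the counts can separate. Of the 100-base windows of the longest coding transcript, 47.07% of those of Hspa1a also occur in Hspa1b, and 63.44% of those of Hspa8, 47.55% of those of Hsp90aa1 and 42.72% of those of Hspb1 occur in transcripts of other genes. For Hspb1 and Hsp90aa1 the gene sharing most was a pseudogene. For Hspa8 the lincRNA Gm26825 (58.47%) and Gm15459 tied for the most. Windows of Hspa5, Hsp90ab1, Dnajb1 and Hsph1 occurred in no other gene. Cryab shares exon bases with Hspb2 on the opposite strand, and the use of strand in counting was not stated.

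Between 19331876 and 32621917 reads were counted on genes per sample, so that 1 read was worth a level of 0.756 to 1.18. Levels below are the deposited read counts divided by a size factor for each sample and are not corrected for gene length. GFP+ samples had 15575 to 26757 entries above 0 and GFP- samples 30807 to 31897, and 4 GFP+ samples were under 20000. The summed level of 10 astrocyte markers was 1300.0% to 2440% of the GFP- mean in the GFP+ samples. Socs3 ranged from 13296 to 37750 in APP-SOCS3 against 438 to 1639 in the other GFP+ samples and 10320 to 17689 in GFP- cells. Samples of bulk RNA cannot tell fewer cells of a type from less RNA per cell.

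Per kilobase of merged GENCODE exons, Hspa8, the constitutive HSP70, was the most abundant member in WT-GFP astrocytes, at a mean of 8449 ± 1713 (SD, n = 7). Hsp90ab1, the constitutive cytosolic HSP90, followed at 6477 ± 1670 and was below Hspa8 in 5 of 7 samples, so that this pair is not clearly ordered. Hspa5 came next at 4216 ± 1101 and Cryab at 2768 ± 911. A second tier held Hspb1 at 1174 ± 1304, the inducible Hsp90aa1 at 847 ± 197 and Hspa1a/Hspa1b at 804 ± 512, and Hspb1 exceeded Hsp90aa1 in only 2 of 7 samples. The co-chaperones Hsph1 (191 ± 58.8) and Dnajb1 (155 ± 47.6) were lowest. APP-GFP kept the same first 5 places. In GFP- cells the order was another: Hsp90ab1 (17809 ± 1952 per kilobase, n = 3), Hspa1a/Hspa1b (16089 ± 5230), Hspa8 (13672 ± 1881) and Hspb1 (12877 ± 1619) led, and Cryab was in the seventh place at 1725 ± 292. The lengths of the constitutive regions that the authors counted are not known, so these values are approximate.

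**Figure D1:**
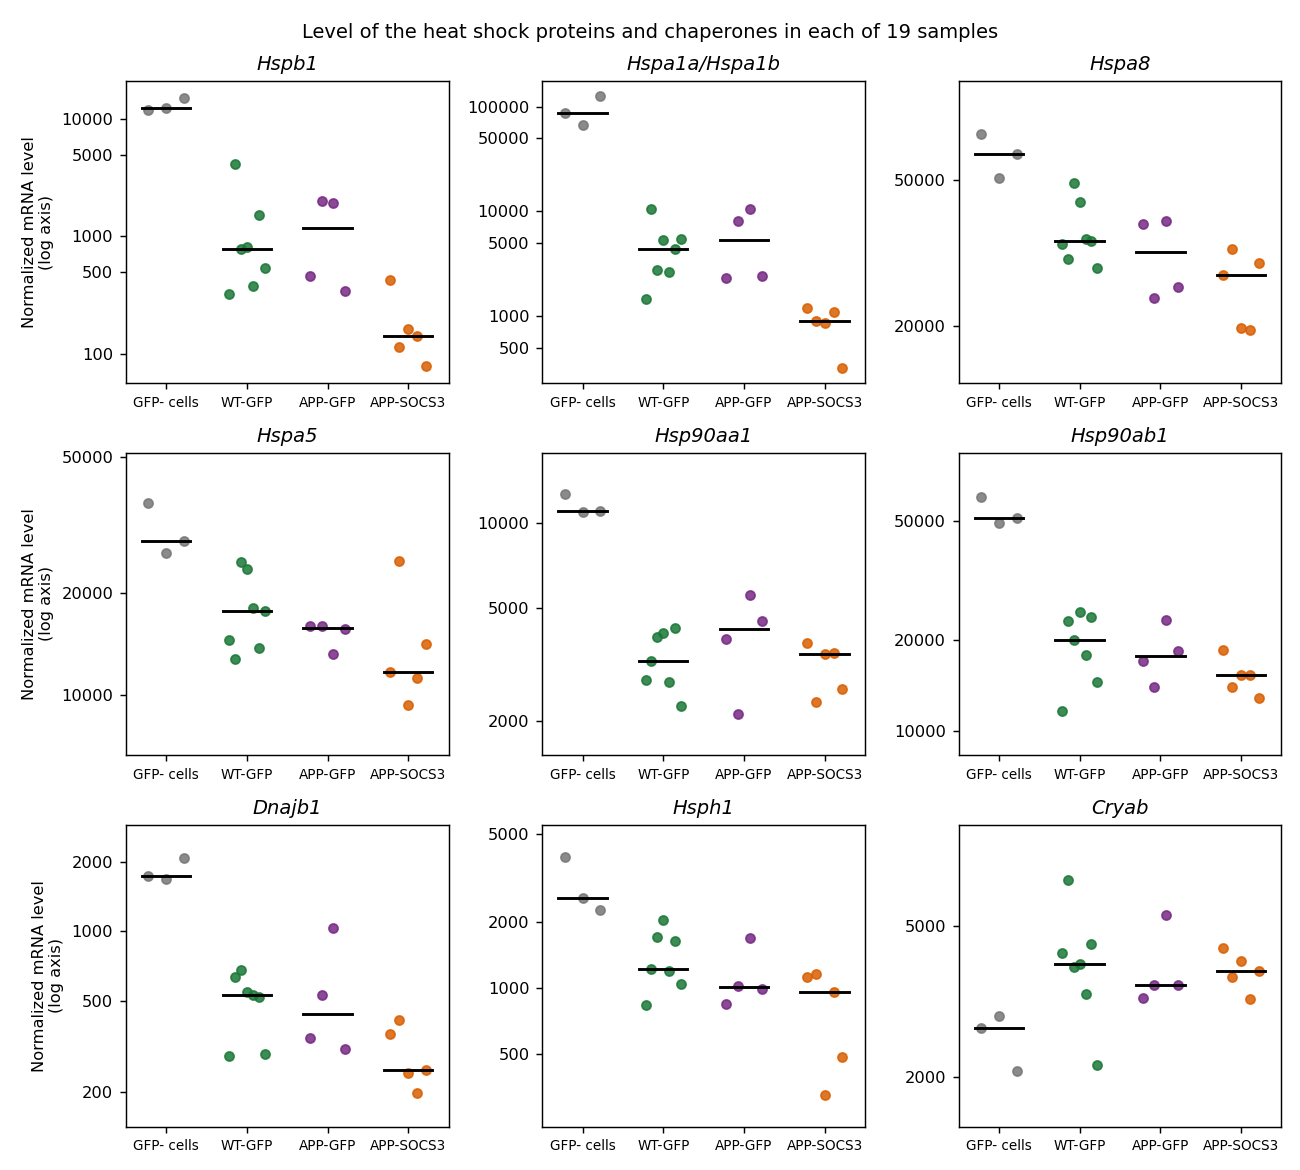
Normalized mRNA level (log axis) of each member in each of the 19 samples, with points for samples and bars for group medians. Hspb1 and Hspa1a/Hspa1b lie lowest in APP-SOCS3, and every member but Cryab lies highest in the GFP- cells, without overlap with WT-GFP.

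WT-GFP astrocytes were compared with the GFP- cells of the same group of mice to ask how the members are distributed between the sorted GFP+ astrocytes and the unlabelled mixture. In total, 8 of 9 entries were lower in WT-GFP astrocytes by the study's criteria, here applied to limma on log2(level + 1): a 1.5-fold change or more with an unadjusted p no higher than 0.05. Of all 26709 entries tested, 33.5% were called lower, 42.8% in either direction. All 8 also had an adjusted p below 0.05 (31.9% of all entries), and none of the 8 overlapped between the groups, which held for 27.2% of all entries in that direction. The median log2 fold change was -1.50 over the members and -1.31 over all entries. The latter includes many low entries. Over the 15364 entries averaging 100 or more in a group compared, as every member did, it was -0.74.

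Among the members, Hspa1a/Hspa1b, Hspb1 and Dnajb1 stood farthest apart. Hspa1a/Hspa1b, the inducible HSP70, was at 66408, 86380 and 125720 in GFP- cells and at 1449 to 10446 in WT-GFP (median 4365). The lowest GFP- sample exceeded the highest astrocyte sample (means of 4641 and 92836, log2 fold change -4.52 ± 0.50 SE, adjusted p = 5.48e-05 by limma). Hspb1, a small heat shock protein that also binds actin filaments, was at 12057, 12593 and 15179 in GFP- cells and at 320.4 to 4119 in WT-GFP (median 779). The groups did not overlap, and the log2 fold change was -4.00 ± 0.67 (11.0-fold between means, adjusted p = 0.00105 by limma). Dnajb1, the J-domain partner of inducible HSP70, was at 1689, 1739 and 2079 in GFP- cells and at 289 to 677 in WT-GFP, a log2 fold change of -1.94 ± 0.32.

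The HSP90 pair followed. Hsp90aa1 was at 10869, 10969 and 12579 in GFP- cells and at 2261 to 4236 in WT-GFP (log2 fold change -1.82 ± 0.21). Hsp90ab1 was at 49217, 50916 and 60097 in GFP- cells and at 11626 to 24775 in WT-GFP (-1.50 ± 0.23). Neither gene overlapped between the groups. Smaller differences were seen for Hsph1, the HSP110 nucleotide exchange factor (log2 fold change -1.09 ± 0.30), for Hspa5 (-0.79 ± 0.22) and for Hspa8 (-0.71 ± 0.17). Hspa8 was at 50602 to 66776 in GFP- cells and at 28777 to 49244 in WT-GFP, so that the closest samples differed little. In the exact 2-sided permutation test, Hspa5 gave p = 0.0167 and the other 7 of the 8 gave 0.00833, the smallest value that 7 samples against 3 allow.

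Cryab was the only member with a higher mean in WT-GFP astrocytes, at 2153 to 6601 (median 3966) against 2067, 2685 and 2900 in GFP- cells. The groups overlapped through 1 astrocyte sample, replicate 7, and the difference missed the criteria (log2 fold change 0.63 ± 0.29, p = 0.0501 by limma, exact permutation p = 0.0833). It was called by edgeR and by DESeq2 on the recovered reads (log2 fold change 0.95 and 0.72), and by limma without that sample (0.77). Of 26 alternatives, 8 called Cryab and 18 did not. Its log2 fold change was 0.41 without the samples under 20000 entries. With the microglia markers as a covariate it was 0.31, and -0.12 with the number of entries above 0. The adjusted p by DESeq2 was 0.091. edgeR called neither Hspa8 (-0.42) nor Hspa5 (-0.50) in this comparison.

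All 14 immediate early genes, which respond within minutes to stimulation, were also lower in WT-GFP astrocytes. Their summed level was 6.02% to 11.8% of the GFP- mean. Fos differed by -3.40 on the log2 scale, Jun by -3.73 and Egr1 by -4.20. Markers of the other cell types in the GFP- fraction were lower as well, with all 10 endothelial, all 10 microglia and all 8 mural cell markers called. All 6 oligodendrocyte precursor markers and 7 of 10 neuron markers were called lower, while of 9 oligodendrocyte markers tested 3 were called lower and 2 higher. With the mean log2 level of the endothelial markers as a covariate, a choice made after seeing the data, only Hsp90aa1 was called (-1.64), and Hspb1 was at -0.52 and Hspa1a/Hspa1b at -1.10.

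Most of the other chaperone genes were not called, and the same held for entries at large. Of all 26709 entries tested, 33.5% were called lower, 2471 entries higher, and 42.8% in either direction. Of 82 further entries for small heat shock proteins, HSP70, HSP90 and J-domain relatives, chaperonins, co-chaperones, heat shock factors and ER genes, 80 were tested, 25 were called lower, 4 higher and 51 in neither direction, and their median log2 fold change was -0.41. The 4 that were higher in WT-GFP astrocytes were Hspb8, a small heat shock protein of the BAG3 complex (1.11 ± 0.19 SE, adjusted p = 0.00150 by limma), the HSP70 relative Hspa2 (0.65), Hspbp1 (0.69), which regulates nucleotide exchange of HSP70, and Hsbp1 (0.88), which binds heat shock factor 1. Hsp90b1, the HSP90 of the ER, was lower (-0.89 ± 0.16), as was the J-domain gene Dnaja1 (-1.16 ± 0.22). In the HSP70 list Hspa12a (-5.47), Hspa12b (-4.86) and Hspa4 (-1.16) were lower, and Cct4 (-0.71) was the only chaperonin subunit called. Of the 16 ER genes 8 were lower, with Xbp1 (-0.87), Atf4 (-1.44), Calr (-0.62) and Herpud1 (-0.78) having the smallest p. Hsf1, the main activator of the heat shock genes, had a similar level in both fractions (1459 against 1524, log2 fold change -0.07 ± 0.17), and the mitochondrial chaperonins Hspd1 (-0.56 ± 0.31) and Hspe1 (0.59 ± 0.33), Bag3 (-0.68 ± 0.48) and Hsf2 (-2.87 ± 1.93) did not pass.

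**Figure D2:**
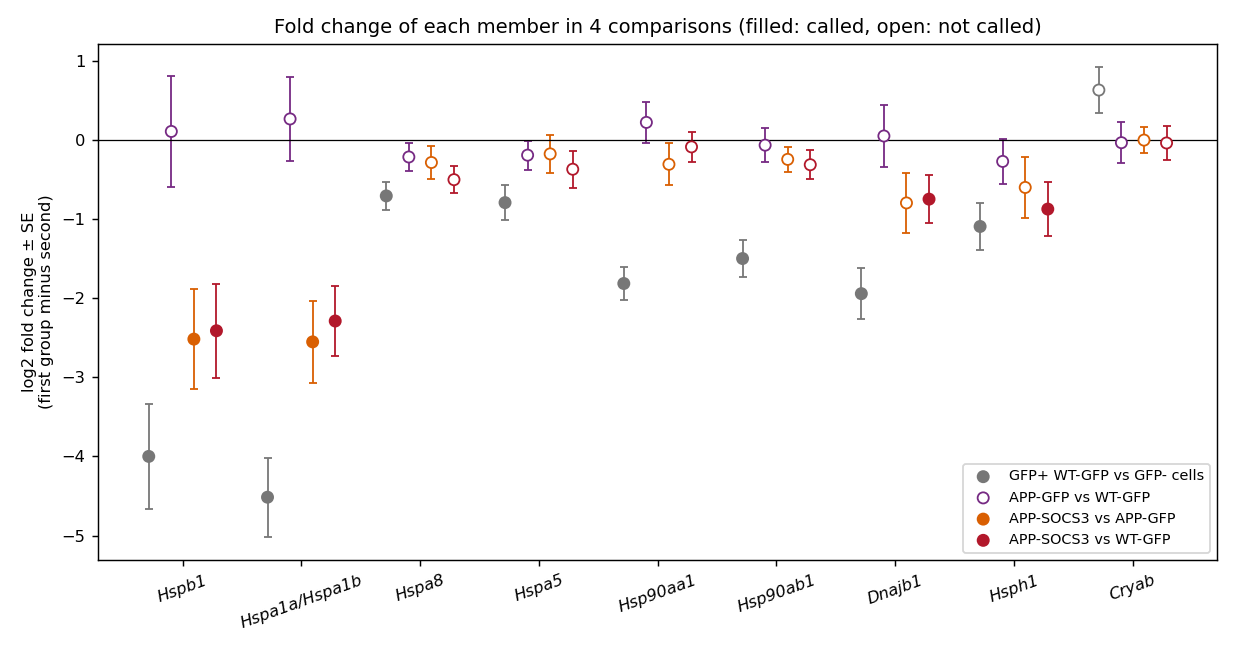
Log2 fold change ± SE of each member (limma, log2(level + 1) scale) in the 4 comparisons, with filled points for members called. Hspb1 and Hspa1a/Hspa1b are near 0 for APP-GFP against WT-GFP and below -2 in both comparisons with APP-SOCS3.

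APP-GFP was compared with WT-GFP astrocytes to ask what changes in astrocytes of mice with amyloid pathology. No member was called (0 of 9, with 2.23% of 22969 entries called in either direction). None had an unadjusted p of at most 0.05 by limma, and edgeR and DESeq2 on the recovered reads called none either. The log2 fold changes lay between -0.27 (Hsph1, SE 0.28) and 0.26 (Hspa1a/Hspa1b, SE 0.54), and every member overlapped between the groups. The exact permutation p ranged from 0.291 to 0.921, where 4 samples against 7 could have reached 0.00303.

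The error of these null comparisons differed greatly between members. Hspb1 was at 345, 459, 1926 and 2028 in APP-GFP and at 320.4 to 4119 in WT-GFP, and its log2 fold change of 0.11 had an SE of 0.70. Hspa1a/Hspa1b was at 2297, 2446, 8188 and 10655 in APP-GFP, with 2 samples low and 2 high as for Hspb1. The samples that were high were replicates 2 and 3, in which the endothelial markers stood at 17.5% and 10.1% of the GFP- mean, against 3.93% and 3.22% in replicates 1 and 4. Hspa8 (-0.22 ± 0.18), Hspa5 (-0.19 ± 0.18), Hsp90ab1 (-0.07 ± 0.22) and Cryab (-0.04 ± 0.26) were measured more tightly. Dnajb1 (0.05 ± 0.39) and Hsp90aa1 (0.22 ± 0.26) also straddled 0. None of the 79 other chaperone entries tested was called, none had an unadjusted p of at most 0.05 by limma, and edgeR and DESeq2 each called 1. Of the 14 immediate early genes 3 were called higher in APP-GFP, Jun (0.68) and Egr1 (0.66) among them, and their summed level was 11.6% to 14.8% of the GFP- mean.

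APP-SOCS3 was compared with APP-GFP astrocytes to ask what inhibition of the JAK2-STAT3 pathway changes in astrocytes of the same genotype. The stress-inducible Hspa1a/Hspa1b and Hspb1 were lower in APP-SOCS3, and the other 7 entries were not called. Of all 22844 entries tested 3.37% were called lower and 5.7% in either direction. All 9 members had a negative log2 fold change, with a median of -0.31 against 0.08 over all entries.

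Hspa1a/Hspa1b was at 320.8, 857, 899, 1104 and 1208 in APP-SOCS3, all below the lowest APP-GFP sample of 2297. Its log2 fold change was -2.55 ± 0.52 SE, and the exact 2-sided permutation p of 0.00794 was the smallest that 5 samples against 4 allow. In this direction 1.09% of all entries did not overlap. Hspb1 was at 78.2, 113.5, 140.2, 163 and 426 in APP-SOCS3. Only the highest of these, replicate 1, exceeded the lowest APP-GFP sample (345), and the log2 fold change was -2.52 ± 0.63 (exact permutation p = 0.0238). Adjusted over all entries by limma, p was 0.379 for Hspa1a/Hspa1b and 0.576 for Hspb1, so neither passed an adjusted p of 0.05, which 0.00438% of entries did. On the recovered reads the adjusted p was 1.16e-05 and 0.00415 by DESeq2 and 0.364 and 0.525 by edgeR. Over 25 alternatives the highest adjusted p was 1.00 for both.

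Dnajb1 was at 198 to 414 in APP-SOCS3 and at 308, 343, 529 and 1034 in APP-GFP. Its log2 fold change of -0.80 ± 0.38 missed the criteria (exact permutation p = 0.0714), and edgeR (-0.90) and DESeq2 (-0.92) called it. Hsph1 was at 328 to 1154 in APP-SOCS3 and at 849 to 1698 in APP-GFP (-0.60 ± 0.39). Both genes overlapped between the groups. The constitutive and ER members were not called: Hspa8 -0.29 ± 0.21, Hspa5 -0.18 ± 0.24, Hsp90ab1 -0.25 ± 0.16 and Hsp90aa1 -0.31 ± 0.26. Cryab had nearly equal means of 3817 and 3888 (-0.00 ± 0.17), the tightest of the 9 estimates but that of Hsp90ab1.

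Markers of other cell types moved with the same groups. In APP-SOCS3 against APP-GFP, all 10 endothelial, all 10 microglia and 4 of 8 mural cell markers were called lower, with 13 of 14 immediate early genes (Fos -1.17, Jun -0.59, Egr1 -1.79), 2 neuron, 1 oligodendrocyte and 3 of 6 oligodendrocyte precursor markers. No astrocyte marker was called. The summed endothelial level was 0.624% to 3.58% of the GFP- mean in APP-SOCS3, 3.22% to 17.5% in APP-GFP and 2.14% to 21.0% in WT-GFP. For mural cells it was 1.59% to 2.75%, 2.88% to 14.4% and 2.31% to 23.3%, and for microglia 5.02% to 8.87%, 8.58% to 36.5% and 6.55% to 23.4%. Up to 3 of the 10 endothelial markers were at 0 in an APP-SOCS3 sample, up to 1 in WT-GFP and none in APP-GFP. On the same scale Hspb1 was 0.589% to 3.21% in APP-SOCS3, 2.60% to 15.3% in APP-GFP and 2.41% to 31.0% in WT-GFP. Hspa1a/Hspa1b was 0.346% to 1.30%, 2.47% to 11.5% and 1.56% to 11.3%.

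With the endothelial markers as a covariate, the log2 fold changes in APP-SOCS3 against APP-GFP were -0.39 for Hspb1 and -0.84 for Hspa1a/Hspa1b, and neither was called. With the microglia markers as a covariate they were -0.84 and -1.07, not called either. Since these markers fell together with the SOCS3 vector, their share and that of SOCS3 in the members' levels cannot be told apart.

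**Figure D3:**
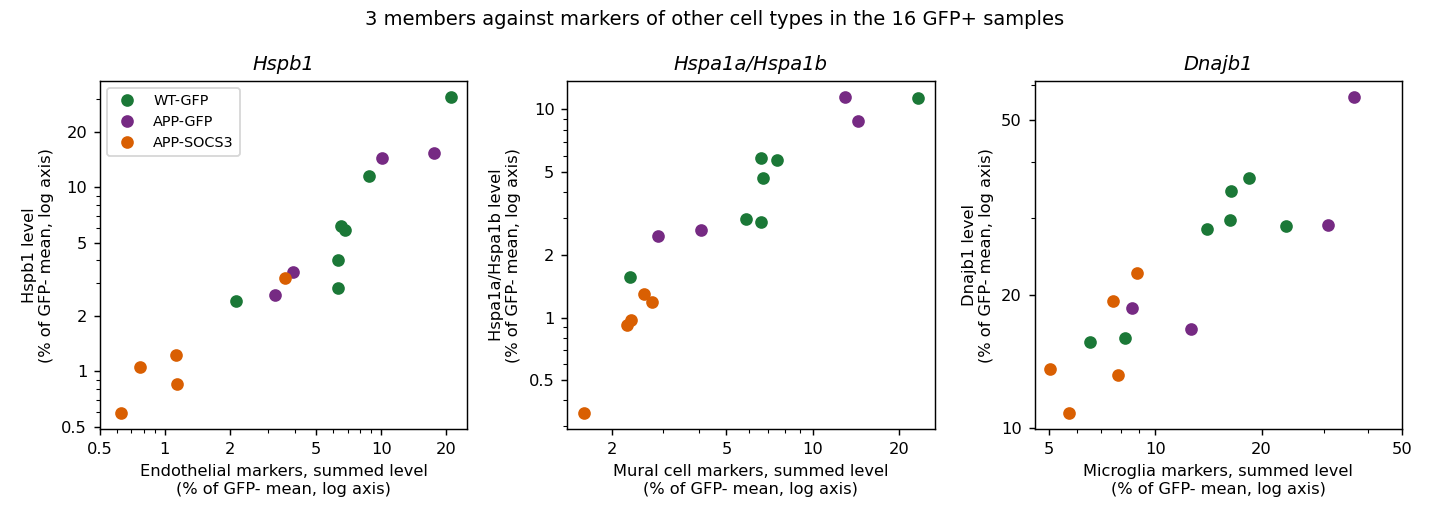
Level of Hspb1, Hspa1a/Hspa1b and Dnajb1 in the 16 GFP+ samples against the summed level of the marker list with which each correlated most, both as percent of the mean in GFP- cells (log axes). The 5 APP-SOCS3 samples have Hspb1 at 0.589% to 3.21% and Hspa1a/Hspa1b at 0.346% to 1.30%, and their Hspb1 values overlap those of both other groups.

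APP-SOCS3 was also compared with WT-GFP astrocytes, which shares the APP-SOCS3 samples with the comparison above and is no independent repeat of it. Here 4 of 9 entries were called lower, where 2.02% of 22958 entries were called lower and 5.21% in either direction. Hspa1a/Hspa1b was lower in every APP-SOCS3 sample (at most 1208) than in every WT-GFP sample (at least 1449). Its log2 fold change was -2.29 ± 0.44 and the exact 2-sided permutation p was 0.00379, with 0.279% of entries free of overlap in this direction. Hspb1 had a log2 fold change of -2.41 ± 0.59 (exact permutation p = 0.00631) and overlapped through APP-SOCS3 replicate 1.

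The partners of HSP70 were the other members called. Hsph1 was at 328, 487, 963, 1126 and 1154 in APP-SOCS3 and at 836 to 2050 in WT-GFP (median 1223), a log2 fold change of -0.88 ± 0.34. Dnajb1 was at 198, 243, 250, 357 and 414 against 289 to 677 (median 528), a log2 fold change of -0.75 ± 0.30. Both overlapped, and both calls were lost when APP-SOCS3 replicate 3 or 5 was left out, which gave -0.59 and -0.73 for Hsph1 and -0.70 and -0.71 for Dnajb1. Leaving out replicate 4 removed Dnajb1 as well (-0.62). Hspa8 had an exact permutation p of 0.0126 at a log2 fold change of -0.50 ± 0.17, under the criterion of 1.5-fold. Hspa5 (-0.37 ± 0.23), Hsp90ab1 (-0.31 ± 0.18), Hsp90aa1 (-0.09 ± 0.19) and Cryab (-0.04 ± 0.22) were not called.

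No member passed an adjusted p of 0.05 by limma in this comparison, where 5 had an unadjusted p of at most 0.05 (lowest adjusted p 0.114, Hspa1a/Hspa1b), and 0.0305% of all entries passed. By DESeq2 on the recovered reads 2 passed, Hspb1 and Hspa1a/Hspa1b, and by edgeR none. Without the 3 WT-GFP samples under 20000 entries, left out after seeing the data, the adjusted p of Hspa1a/Hspa1b by limma was 0.0481 (log2 fold change -2.42), and over its 28 alternatives it ranged from 5.27e-06 to 0.986. With the endothelial markers as a covariate no member was called, and Hspa1a/Hspa1b stood at -0.70 and Hspb1 at -0.65. Of these markers 8 of 10 were called lower here, as were 8 of 10 microglia markers, 4 of 8 mural cell markers and 8 of 14 immediate early genes.

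No other chaperone gene was called in either comparison with APP-SOCS3, of 78 entries tested in each. By limma 1 entry had an unadjusted p of at most 0.05 in each, Bag2 and Hspb8, and edgeR and DESeq2 called 1 each in either comparison. Their median log2 fold changes were -0.06 and -0.01. Hsf1 was at a mean of 1260 in APP-SOCS3, 1517 in APP-GFP and 1459 in WT-GFP (log2 fold changes -0.28 ± 0.22 and -0.24 ± 0.18). Dnaja1 fell short of the call against both (-0.53 ± 0.24 and -0.48 ± 0.22). Hsp90b1 (0.08 ± 0.10 against APP-GFP and 0.15 ± 0.11 against WT-GFP), Hspd1 (-0.09 ± 0.18 and 0.07 ± 0.24), Hspe1 (-0.07 ± 0.26 and 0.08 ± 0.25) and Bag3 (0.36 ± 0.46 and 0.06 ± 0.39) were near 0. Hsf2, at low levels, had wide errors (1.53 ± 0.72 and 2.68 ± 1.47).

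**Figure D4:**
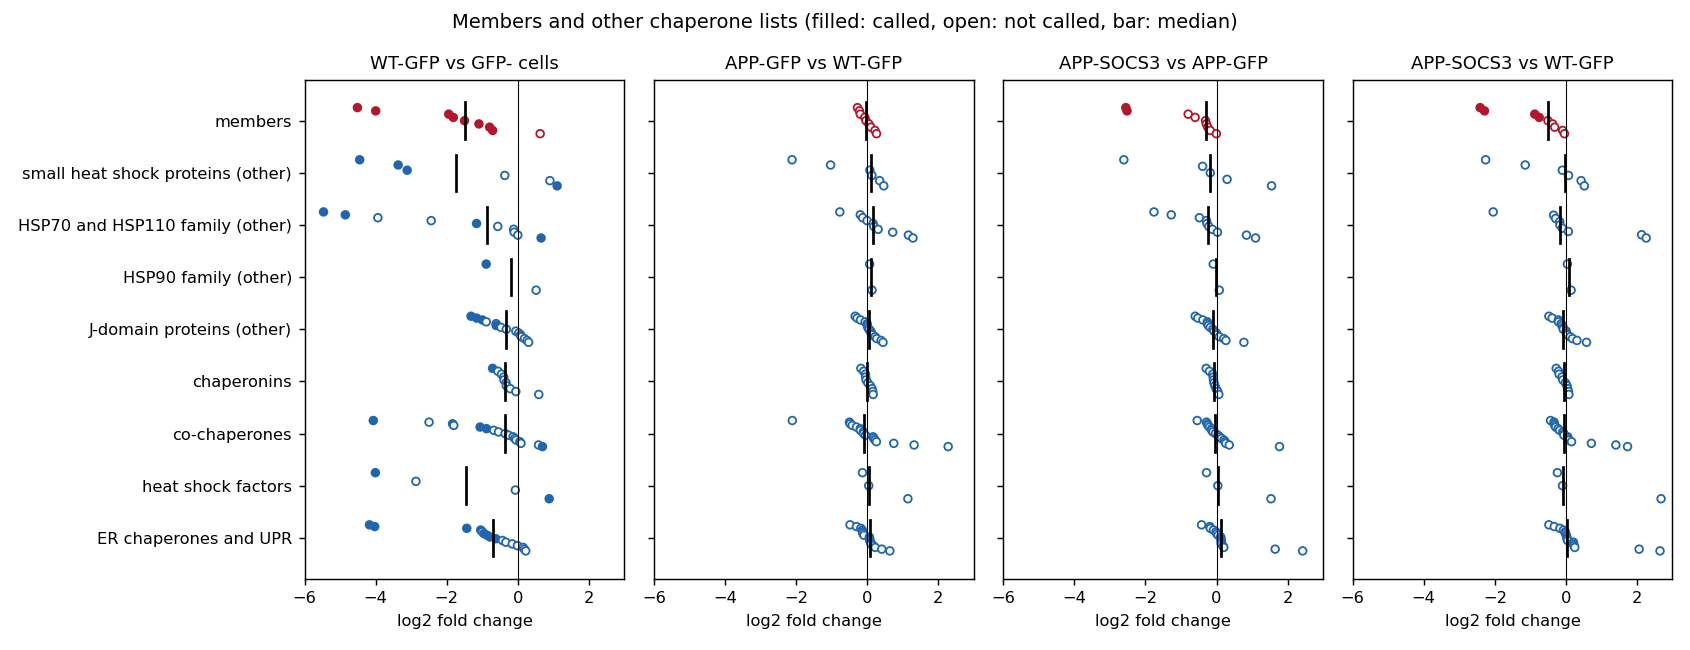
Log2 fold change of the members and of the other chaperone lists in the 4 comparisons, with a point for each entry, filled where called, and a bar for the median of the list. Outside the comparison with GFP- cells, the filled points are members.

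Across the 16 GFP+ samples the members did not vary as a single block. Of 36 pairs, 14 were correlated on the log2 scale after Benjamini-Hochberg adjustment by a permutation test with 100000 resamples, and 12 by Spearman's rho. Without APP-SOCS3 replicate 3 it was 9 pairs by r. Hspb1 and Hspa1a/Hspa1b had the highest correlation, with r = 0.93 and rho = 0.93 (permutation p = 1e-05 for both, the smallest these resamples give, adjusted p = 0.00036). It was r = 0.91 without the 2 samples farthest from the median of Hspb1, and r = 0.85 after group means were removed (adjusted permutation p = 0.00072). Each of the 2 also followed the endothelial markers, Hspb1 at r = 0.96 and Hspa1a/Hspa1b at r = 0.93. The cause of the correlation between the 2 was not tested. Hsp90aa1 and Hsp90ab1 formed the other pair that held with group means removed (r = 0.74, rho = 0.77, and 0.78 with group means removed, adjusted permutation p = 0.00738).

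No other pair passed within groups, 2 of 36 in all, and the samples of the 3 groups differ in level, so the pooled values mix differences between and within groups. Hspa8 and Hspa5 had r = 0.69 (0.61 with group means removed, adjusted permutation p = 0.0595) and rho = 0.53. Dnajb1 and Hsph1 had r = 0.73 and rho = 0.87 (r = 0.62 with group means removed, adjusted permutation p = 0.0595). Hspa5 and Cryab had a negative r of -0.29.

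**Figure D5:**
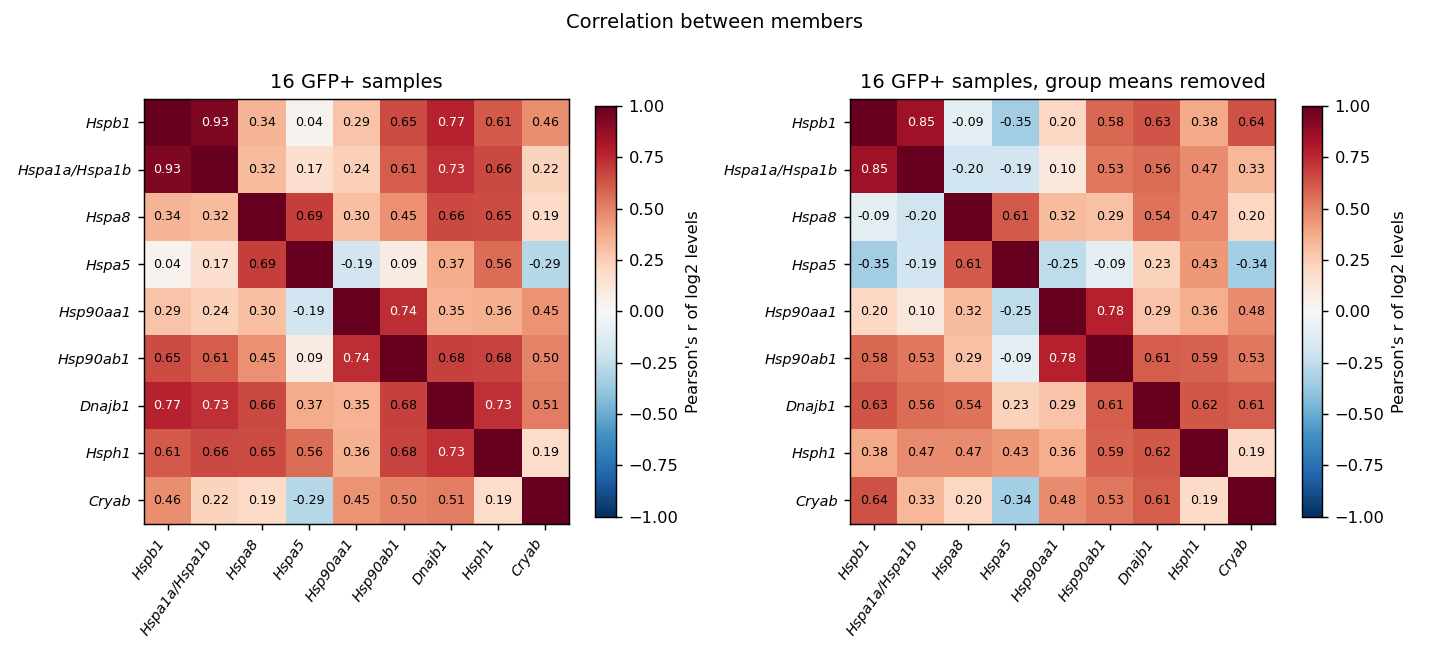
Pearson's r between the log2 levels of the members over the 16 GFP+ samples, with group means kept (left) and removed (right). The pairs Hspb1 with Hspa1a/Hspa1b (0.93, then 0.85) and Hsp90aa1 with Hsp90ab1 (0.74, then 0.78) remain high in both panels.

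The same samples were used to relate each member to 6 summed lists, of microglia, endothelial, mural cell, oligodendrocyte and neuron markers and immediate early genes, and to the number of entries above 0. Of the 63 relations 11 passed adjustment (13 by rho), and 5 did with group means removed. Hspb1 followed the endothelial markers (r = 0.96, rho = 0.98, permutation p = 1e-05 for both, the smallest possible, adjusted p = 0.000157 and 0.00021), with r = 0.94 without the 2 samples farthest from its median. Its r was 0.89 within WT-GFP, 0.97 within APP-GFP, 0.94 within APP-SOCS3 and 0.92 with group means removed. Hspa1a/Hspa1b followed the mural cell markers (r = 0.94, rho = 0.95, and 0.91 with group means removed) and the endothelial markers (r = 0.93, rho = 0.94, and 0.83). Dnajb1 followed the microglia markers (r = 0.89, rho = 0.89, and 0.85 with group means removed). Hspb1 also followed the mural cell markers (r = 0.92, and 0.84 with group means removed) and the microglia markers (r = 0.75). Hspa1a/Hspa1b also followed the microglia markers (r = 0.79) and the immediate early genes (r = 0.69). Dnajb1 also followed the endothelial (r = 0.78) and mural cell markers (r = 0.77), and Hsph1 the endothelial markers (r = 0.64). Hspa8, Hspa5, Hsp90aa1, Hsp90ab1 and Cryab had no relation that passed. The within-group values for APP-GFP and APP-SOCS3 rest on 4 and 5 samples.

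Among 10229 genes averaging 100 or more in the GFP+ samples, the gene most like each member by Pearson's r over these 16 samples was named. Hspb1 was closest to Gm9817 (r = 0.99), a gene model on chromosome 13 that shares 100-base windows with Hspb1, so that reads may be shared. Hspa1a/Hspa1b was closest to Klf2 (0.97), Hsph1 to Robo4 (0.84), Dnajb1 to Tmem119 (0.90), Hspa8 to Xbp1 (0.78) and Hspa5 to Rragc (0.86). Klf2 and Robo4 are known from endothelium, Tmem119 from microglia and Xbp1 from the unfolded protein response. Each r is the highest of 10229, and how high it would be by chance was not tested. Hsp90aa1 was closest to Tubb4b (0.86), Hsp90ab1 to Ninj1 (0.84) and Cryab to Aurkaip1 (0.95).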

How the data were processed

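Full-length cDNA from sorted cells was sequenced in paired ends. The authors aligned reads to mm10 with STAR 2.4.0, counted them on the constitutive regions of each FAST DB gene and normalized with DESeq2 (per the study's methods). The deposited signal is therefore the read count divided by a size factor per sample, with no length correction. Whole reads were recovered for 100% of values (tolerance 0.001 reads). Among 60567 entries, 34671 had no symbol and 21293 were at 0 in every sample.

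Entries that averaged 10 or more in a group compared were tested with limma 3.58.1 (trend, R 4.3.3) on log2(level + 1), fitting the 2 groups compared. The fold change of a low gene therefore depends on the 1 added. A call took an unadjusted p of at most 0.05 and 1.5-fold, the study's thresholds. Benjamini-Hochberg adjustment covered all entries tested. Single genes were tested by exact 2-sided permutation. edgeR 4.0.16 (quasi-likelihood) and DESeq2 1.42.0 on the recovered reads were alternatives. The limma script was tested on simulated data.

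The members and lists were chosen with earlier results of these data known. All members were named. Other chaperone genes were named if among the 4 with the smallest p per list and comparison among those called, with Hsf1, Hsf2, Hsp90b1, Hspd1, Hspe1, Bag3 and Dnaja1 whatever their values. Fos, Jun, Egr1 and the gene most correlated with each member were named too. Bag2, and Hspb8 in the APP-SOCS3 comparison, were chosen after their values were seen.

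Exon lengths and shared sequence came from GENCODE M21, promoters from RefSeq.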

Additional observations from a re-analysis of the deposited data

Results flagged for a closer look

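Of 27 groups of 4 to 7 samples tested for a sample far from the others, 4 held such a sample. The test was Dixon's ratio on levels, not on logs. Chance alone flags about 1 in 20 only where levels are normally distributed, which was not tested. Hspb1 was 4119 in WT-GFP replicate 2, against 1529 in the next sample, and that replicate also had the highest endothelial (21.0% of the GFP- mean) and mural cell (23.3%) markers. Hspb1 was 426 in APP-SOCS3 replicate 1, against 163 in the next, and this sample had the highest endothelial markers of its group (3.58%). In APP-GFP replicate 3, Hspa5 was low at 13237 (next 15605) and Cryab high at 5343 (next 3492), and that sample had the highest microglia markers of its group (36.5%). The highest endothelial (17.5%) and mural cell (14.4%) markers of that group were in replicate 2. Neither Hspa5 nor Cryab had a relation to any marker list that passed adjustment. The part of these markers in the values was not tested.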

How the results depend on the processing

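Without 1 sample at a time, members called ranged from 8 to 9 in WT-GFP against GFP- cells (8 with all samples), from 2 to 3 in APP-SOCS3 against APP-GFP (2). In APP-SOCS3 against WT-GFP (4) they ranged from 2 to 6, where leaving out APP-SOCS3 replicate 3 or 5 gave 2. APP-GFP against WT-GFP stayed at 0 in every alternative run. With the microglia markers as a covariate the other 3 counts became 3, 0 and 2, and with the endothelial markers, a choice made after seeing the data, 1, 0 and 0. An adjusted p under 0.05 left 0 of 2 and 0 of 4 in the APP-SOCS3 comparisons. In APP-SOCS3 against WT-GFP, equal upper quartiles gave 2 and a fold change of at least 2 gave 2. Scaling moved the median log2 fold change over all entries from 0.19 to 0.52 there with equal upper quartiles and to 0.02 by edgeR, and from -1.31 to -0.37 by edgeR in WT-GFP against GFP- cells. Correlated pairs of members fell from 14 to 2 with group means removed, and ranged from 9 (without APP-SOCS3 replicate 3) to 15 without 1 sample. The calls on other chaperone genes ranged from 1 to 41 in WT-GFP against GFP- cells, from 0 to 1 in APP-GFP against WT-GFP, and from 0 to 3 and 0 to 5 in the APP-SOCS3 comparisons. No call changed direction. Except where a covariate takes up the difference between groups or a criterion is stricter by construction, the cause was not tested. Same-numbered samples had r from -0.19 to 0.21. In APP-GFP against WT-GFP 3 of 4 pairs were over 0.1, and in no comparison was every pair. The same-numbered sample was the most alike for 2 samples in WT-GFP against GFP- cells and 2 in APP-GFP against WT-GFP. It was so for 3 in APP-SOCS3 against APP-GFP and 0 in APP-SOCS3 against WT-GFP. The numbers were not taken to pair the samples, though these values do not settle it. With the replicate number as a block the call of Hsph1 in APP-SOCS3 against WT-GFP was lost (-0.89), and Cryab was called in WT-GFP against GFP- cells (0.92).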
